A study of Mus musculus with 16 samples.

Results

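Autophagy delivers cytoplasm, protein aggregates and organelles to the lysosome inside a double membrane, the autophagosome. The ULK kinase complex starts it, a class III phosphatidylinositol 3-kinase complex marks the site with PI3P, ATG9 vesicles and lipid transfer proteins supply membrane, and 2 linked conjugation systems attach ATG8 proteins to the growing membrane, where receptors bind cargo. Neurons depend on this route because they do not divide, and several genes linked to amyotrophic lateral sclerosis (ALS) encode autophagy receptors or their kinase.

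The 37 genes described here encode this core machinery. They were taken by gene symbol, and 37 of 37 symbols were in the table of 18167 genes. Mouse spinal cord RNA had been sequenced from 16 mice that carry human profilin1, an actin-binding protein, under the mouse *Prnp* promoter, which drives expression in many tissues. On the C57BL/6N background, mutant mice carry the G118V form from the transgene Tg(Prnp-PFN1*G118V)838Kiaei and wild-type mice the unchanged human protein from Tg(Prnp-PFN1)850Kiaei, so both genotypes carry a human transgene and there was no group without one. Each replicate was a separate mouse, labelled male. The mutant young (MY) group had 3 mice and the wild-type young (WY) group 3 mice, all 50 days old and before symptoms in the mutant line. The mutant old (MO) group had 5 mice at end stage, aged 198, 190, 245, 224 and 175 days for MO1 to MO5. The wild-type old (WO) group had 5 mice, aged 190 days for WO1 to WO3 and 294 days for WO4 and WO5. Mice 4 and 5 of the MO and WO groups were in library batch 2, and the 12 other mice were in batch 1. Age and disease stage cannot be told apart within the mutant line from MY vs. MO alone, and WO vs. MO compared genotypes at old age. In batch 2, WO vs. MO held 2 WO and 2 MO mice. There the WO mice (294 days) were older than MO4 (224 days) and MO5 (175 days).

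Values are log2(1 + FPKM), where FPKM is fragments scaled to transcript length and library size, adjusted for batch by the authors. The number of fragments behind each gene is unknown from the deposited values, so error was judged from the spread between mice. A log2 fold change is the second named group minus the first on this scale, and a gene passed with a Benjamini-Hochberg false discovery rate (FDR) at or below 0.05 in limma over all 18167 genes. Lists of values follow the replicate numbers.

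The library of MO5 went against its label. *Xist*, the RNA of the inactive X chromosome, was at 3.21 in MO5 and at most 0.37 in every other mouse. The Y-linked gene *Ddx3y* was at 1.95 in MO5 and at least 4.06 in the others, and *Uty* was at 1.05 against at least 2.03. Counts that passed in MY vs. MO, in WO vs. MO and in the difference of the age effect are therefore also given without MO5 for the members as a whole, and the first 2 for other genes of the pathway. Markers of spinal cord were abundant, with *Mbp* the most abundant oligodendrocyte gene (mean 12.50), *Snap25* the most abundant neuronal gene (10.43) and *Hoxb8* the most abundant spinal position gene (5.75).

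All 37 members were above 1 in every mouse, from a mean of 2.84 for *Atg14* to 8.23 for *Gabarapl1*. The 5 ATG8 genes held the first 5 ranks, at means of 8.23 (*Gabarapl1*), 7.98 (*Gabarapl2*), 7.84 (*Map1lc3b*), 7.37 (*Map1lc3a*) and 7.30 (*Gabarap*). The levels of the last pair differed by less than the spread within groups (SD 0.15 and 0.13). Members varied little: the median SD within groups was 0.08, against 0.10 over the 9070 genes at or above the lowest member mean, and no member ranged over more than 0.61 across the 16 mice.

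In MY vs. MO, 10 of 37 members passed (27.0%), beside 25.6% of all genes. Of these, 2 were higher in MO (all genes 13.1%) and 8 were lower (all genes 12.5%). In WO vs. MO, 7 of 37 passed (18.9%), beside 27.9% of all genes, with 1 higher (all genes 15%) and 6 lower (all genes 12.9%). In these fits, the count past the FDR for MY vs. MO was near the share over all genes and that for WO vs. MO was under it. At an unadjusted p under 0.05 there were 15 members in MY vs. MO (all genes 36.7%) and 14 in WO vs. MO (all genes 38.5%). With all 4 groups in 1 fit, 8 and 10 members passed the FDR (all genes 24.6% and 29.5%). The members were not tested as a set. The median log2 fold change of the members was -0.07 in MY vs. MO and -0.02 in WO vs. MO, beside 0.00 for all genes in both. No member also reached a fold change of 1.5, the size that 4.9% of all genes reached with the FDR in MY vs. MO and 4.6% in WO vs. MO. The 95% confidence interval lay within a fold change of 1.5 either way for 37 of 37 members in both comparisons, as it did for 87.7% and 89.6% of all genes.

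Groups did not overlap for 14 members in MY vs. MO (all genes 31.6%) and for 5 members in WO vs. MO (all genes 19.9%). Without MO5, 8 members passed in MY vs. MO (all genes 23.7%) and 6 in WO vs. MO (all genes 25.9%). Without MY1, MY2 or MY3, 4, 6 and 3 members passed in MY vs. MO (all genes 14.2%, 16.9% and 14.7%). In batch 1 alone, 8 members passed in MY vs. MO (all genes 24.9%). In WO vs. MO, batch 1 alone gave 0 members in limma (all genes 14.4%), with 8 at an unadjusted p under 0.05 (all genes 29.0%). Both comparisons use the same MO mice.

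In WY vs. WO, 0 members passed in limma, beside 1.12% of all genes, and 5 had an unadjusted p under 0.05 (all genes 13.5%). In WY vs. MY, 0 passed, beside 0.0055% of all genes, and 0 had an unadjusted p under 0.05 (all genes 7.16%). Without WY2 that unadjusted count was 10 (all genes 16.5%). It was 3 with all 4 groups in 1 fit (all genes 5.64%), and 0 members passed in either fit. The age effect differed between genotypes, (MO - MY) - (WO - WY), for 6 members, beside 17.7% of all genes (7 and 17.1% without MO5). These were *Gabarap*, for which the difference was positive, and *Atg4b*, *Atg4c*, *Atg9a*, *Pik3c3* and *Wdfy3*, for which it was negative.

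**Figure D1:**
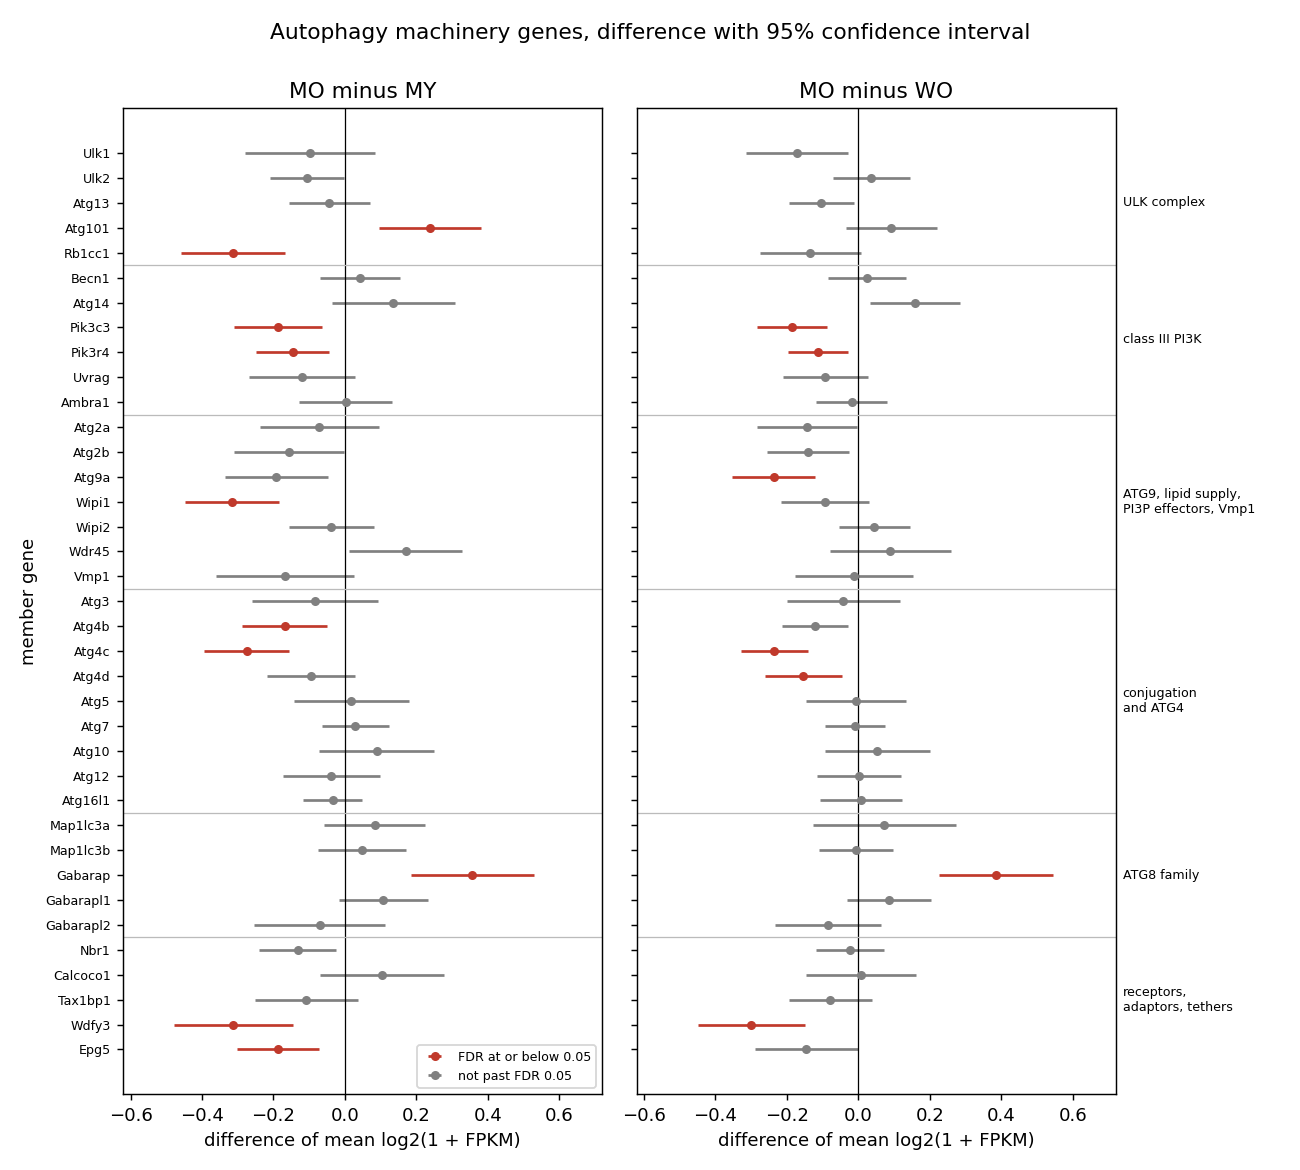
Difference of mean log2(1 + FPKM) for the 37 members, MO minus MY on the left and MO minus WO on the right, grouped by role. Points are differences, bars are 95% confidence intervals, and red marks genes past FDR 0.05 (10 and 7 members). *Gabarap* is the only member that is red and positive in both panels.

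Of the ULK complex, 2 of 5 members passed in MY vs. MO (all genes 25.6%), *Atg101* higher and *Rb1cc1* lower. In WO vs. MO 0 passed (all genes 27.9%). *Rb1cc1* encodes FIP200, the scaffold of the complex. The MO mice had *Rb1cc1* at 4.21, 4.11, 3.92, 4.16 and 4.09, the WO mice at 4.13, 4.23, 4.39, 4.26 and 4.16, the MY mice at 4.45, 4.38 and 4.41 and the WY mice at 3.87, 4.38 and 4.22. Every MO mouse was below every MY mouse, whereas WO and MO overlapped and WY1 was the lowest of all. The log2 fold change was -0.31 (SE 0.06, FDR 0.00834) in MY vs. MO and -0.13 (SE 0.06, FDR 0.149) in WO vs. MO. *Atg101* stabilises ATG13 in the complex. Values of *Atg101* were 4.10, 4.29 and 4.26 in MY, 4.35, 4.55, 4.41, 4.52 and 4.43 in MO, 4.53, 4.33, 4.29, 4.38 and 4.28 in WO and 4.61, 4.21 and 4.45 in WY. MO mice were above all MY mice but inside the combined range of the WO and WY mice, and WY1 was the highest of all. Its log2 fold change in MY vs. MO was 0.24 (SE 0.06, FDR 0.0251), and in batch 1 alone it was 0.22 (FDR 0.0785). *Ulk1* encodes the kinase. In MO, *Ulk1* was at 4.50, 4.29, 4.21, 4.11 and 4.34, beside 4.45, 4.44, 4.40, 4.48 and 4.53 in WO, 4.40, 4.40 and 4.36 in MY and 4.20, 4.27 and 4.35 in WY. MO1 was inside the WO range and the 4 other MO mice were below it. The log2 fold change was -0.10 (SE 0.08, FDR 0.425) in MY vs. MO and -0.17 (SE 0.06, FDR 0.0745) in WO vs. MO, neither past the threshold.

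The class III phosphatidylinositol 3-kinase complex had 2 of 6 members that passed in each comparison, both lower in MO. Of all genes, 25.6% passed in MY vs. MO and 27.9% in WO vs. MO. *Pik3c3* encodes VPS34, the catalytic subunit of the complex. *Pik3c3* was at 4.31, 4.50 and 4.42 in the WY mice, 4.50, 4.48 and 4.54 in the MY mice, 4.50, 4.49, 4.57, 4.49 and 4.48 in the WO mice and 4.41, 4.27, 4.22, 4.41 and 4.28 in the MO mice. All MO mice were below all MY and all WO mice. It had a log2 fold change of -0.19 (SE 0.05, FDR 0.0359) in MY vs. MO and of -0.19 (SE 0.04, FDR 0.0105) in WO vs. MO, and it was -0.22 in batch 1 and -0.14 in batch 2 for WO vs. MO. *Pik3r4* encodes VPS15, which anchors the kinase. The MO mice had *Pik3r4* at 3.45, 3.31, 3.36, 3.35 and 3.42, the WO mice at 3.51, 3.44, 3.47, 3.50 and 3.55, the MY mice at 3.53, 3.48 and 3.56 and the WY mice at 3.20, 3.55 and 3.44. MO mice were below all MY mice and overlapped WO at MO1 alone. Its log2 fold change was -0.15 (SE 0.04, FDR 0.0442) and -0.11 (SE 0.04, FDR 0.0466) in the same order, close to the threshold in both. *Becn1* encodes Beclin 1, the regulatory subunit. Values of *Becn1* were 5.71, 5.70 and 5.73 in MY, 5.82, 5.82, 5.70, 5.79 and 5.65 in MO, 5.82, 5.64, 5.66, 5.77 and 5.76 in WO and 5.83, 5.66 and 5.66 in WY. All 4 groups overlapped. In limma the log2 fold change was 0.04 (95% confidence interval -0.07 to 0.15) in MY vs. MO and 0.02 (95% confidence interval -0.08 to 0.13) in WO vs. MO. Of the *Becn1* transcript words of 50 bases, 36.8% also occur in transcripts of *Cntd1*, counted on either strand as for the other genes. Part of the *Becn1* value may be uncertain for this reason, which was not tested. *Atg14*, *Uvrag* and *Ambra1* did not pass.

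Among ATG9, lipid supply and PI3P effectors, *Wipi1* passed in MY vs. MO and *Atg9a* in WO vs. MO. This was 1 of 7 in each (all genes 25.6% and 27.9%). *Atg9a* encodes the membrane protein of the vesicles that seed the autophagosome. In MO, *Atg9a* was at 5.11, 4.91, 5.04, 4.99 and 5.18, beside 5.30, 5.27, 5.21, 5.30 and 5.34 in WO, 5.23, 5.21 and 5.28 in MY and 5.12, 5.22 and 5.26 in WY. All MO mice were below all WO mice, and below all MY mice. The log2 fold change was -0.24 (SE 0.05, FDR 0.00682) in WO vs. MO, and in MY vs. MO it was -0.19 (SE 0.06, FDR 0.0552), short of the threshold. Transcripts of *Gm29253* hold 29.7% of the *Atg9a* words of 50 bases. *Wipi1* encodes a PI3P-binding protein. *Wipi1* was at 4.06, 4.33 and 4.17 in the WY mice, 4.20, 4.27 and 4.34 in the MY mice, 3.99, 3.99, 3.96, 4.16 and 4.14 in the WO mice and 3.97, 3.97, 3.83, 4.06 and 3.96 in the MO mice. MO mice were below all MY mice and overlapped WO. Its log2 fold change was -0.32 (SE 0.06, FDR 0.00522) in MY vs. MO and -0.09 (SE 0.06, FDR 0.248) in WO vs. MO. *Atg2a*, *Atg2b*, *Wipi2*, *Wdr45* and *Vmp1* did not pass.

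Of the conjugation machinery and the ATG4 proteases, which trim ATG8 proteins and release them from membranes, 2 of 9 passed in each comparison. All of them were ATG4 genes and all were lower in MO. The shares over all genes were 25.6% in MY vs. MO and 27.9% in WO vs. MO. The MO mice had *Atg4c* at 3.89, 4.07, 3.96, 4.07 and 3.99, the WO mice at 4.19, 4.17, 4.26, 4.26 and 4.27, the MY mice at 4.32, 4.28 and 4.21 and the WY mice at 4.24, 4.30 and 4.17. *Atg4c* was the only member whose 5 MO mice all lay below the 11 other mice. So 1 of 37 members lay below and 0 lay above, beside 483 below and 1377 above of all 18167 genes. The log2 fold change of *Atg4c* was -0.28 (SE 0.05, FDR 0.00634) in MY vs. MO and -0.24 (SE 0.04, FDR 0.00221) in WO vs. MO. In WO vs. MO it was -0.23 in batch 1 and -0.24 in batch 2. Values of *Atg4b* were 4.68, 4.70 and 4.76 in MY, 4.45, 4.56, 4.48, 4.64 and 4.59 in MO, 4.69, 4.63, 4.68, 4.64 and 4.69 in WO and 4.52, 4.68 and 4.57 in WY. For *Atg4b*, MO mice were below all MY mice and overlapped WO at MO4. Its log2 fold change was -0.17 (SE 0.05, FDR 0.0449) in MY vs. MO and -0.12 (SE 0.04, FDR 0.0509) in WO vs. MO. In MO, *Atg4d* was at 3.18, 3.38, 3.28, 3.33 and 3.38, beside 3.57, 3.42, 3.42, 3.50 and 3.42 in WO, 3.39, 3.45 and 3.38 in MY and 3.35, 3.27 and 3.40 in WY. *Atg4d* was below all WO mice in MO and overlapped MY. The log2 fold change was -0.15 (SE 0.05, FDR 0.0373) in WO vs. MO and -0.10 (SE 0.05, FDR 0.241) in MY vs. MO. Transcripts of *Kri1* hold 14.6% of the *Atg4d* words of 50 bases. The enzymes and scaffolds *Atg3*, *Atg5*, *Atg7*, *Atg10*, *Atg12* and *Atg16l1* did not pass, with log2 fold changes between -0.08 and 0.09 in MY vs. MO and between -0.04 and 0.05 in WO vs. MO.

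The ATG8 family, the proteins that coat the membrane and bind cargo receptors, had 1 of 5 members that passed, *Gabarap*, higher in MO in both comparisons. Of all genes, 25.6% passed in MY vs. MO and 27.9% in WO vs. MO. *Gabarap* was at 7.49, 7.11 and 7.22 in the WY mice, 7.17, 7.24 and 7.13 in the MY mice, 7.32, 7.05, 7.21, 7.09 and 7.08 in the WO mice and 7.34, 7.65, 7.55, 7.66 and 7.48 in the MO mice. All MO mice were above all MY and all WO mice, with MO1 the lowest, while WY1 was inside the MO range. The log2 fold change was 0.36 (SE 0.08, FDR 0.0102) in MY vs. MO and 0.39 (SE 0.07, FDR 0.00265) in WO vs. MO, a rise of 28.0% and 30.7% in 1 + FPKM. In WO vs. MO it was 0.32 in batch 1 (FDR 0.0914 with batch 1 alone) and 0.48 in batch 2. None of its words of 50 bases occurs in a transcript of another gene. The other 4 genes of the family did not pass. The MO mice had *Map1lc3a* at 7.26, 7.46, 7.41, 7.54 and 7.39, the WO mice at 7.66, 7.20, 7.36, 7.18 and 7.30, the MY mice at 7.30, 7.36 and 7.33 and the WY mice at 7.60, 7.18 and 7.33. Values of *Map1lc3b* were 7.81, 7.79 and 7.81 in MY, 7.91, 7.91, 7.71, 7.89 and 7.83 in MO, 7.91, 7.79, 7.89, 7.83 and 7.87 in WO and 7.87, 7.80 and 7.76 in WY. Both encode LC3 proteins, and their groups overlapped. In MO, *Gabarapl1* was at 8.32, 8.37, 8.20, 8.36 and 8.21, beside 8.33, 8.09, 8.24, 8.17 and 8.20 in WO, 8.19, 8.13 and 8.23 in MY and 8.21, 8.22 and 8.18 in WY. *Gabarapl2* was at 8.10, 7.98 and 8.13 in the WY mice, 7.93, 8.01 and 7.99 in the MY mice, 8.05, 8.04, 8.03, 7.93 and 7.92 in the WO mice and 7.75, 8.08, 7.84, 8.04 and 7.83 in the MO mice. Groups overlapped for these close relatives of *Gabarap* as well. The log2 fold changes in MY vs. MO were 0.08 (95% confidence interval -0.06 to 0.22) for *Map1lc3a*, 0.05 (95% confidence interval -0.07 to 0.17) for *Map1lc3b*, 0.11 (95% confidence interval -0.02 to 0.23) for *Gabarapl1* and -0.07 (95% confidence interval -0.25 to 0.11) for *Gabarapl2*. In WO vs. MO they were 0.07 (95% confidence interval -0.13 to 0.27), -0.01 (95% confidence interval -0.11 to 0.10), 0.09 (95% confidence interval -0.03 to 0.20) and -0.09 (95% confidence interval -0.23 to 0.06) in the same order. *Gabarapl1* shares 23.1% of its words of 50 bases with *1700101I11Rik*.

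**Figure D2:**
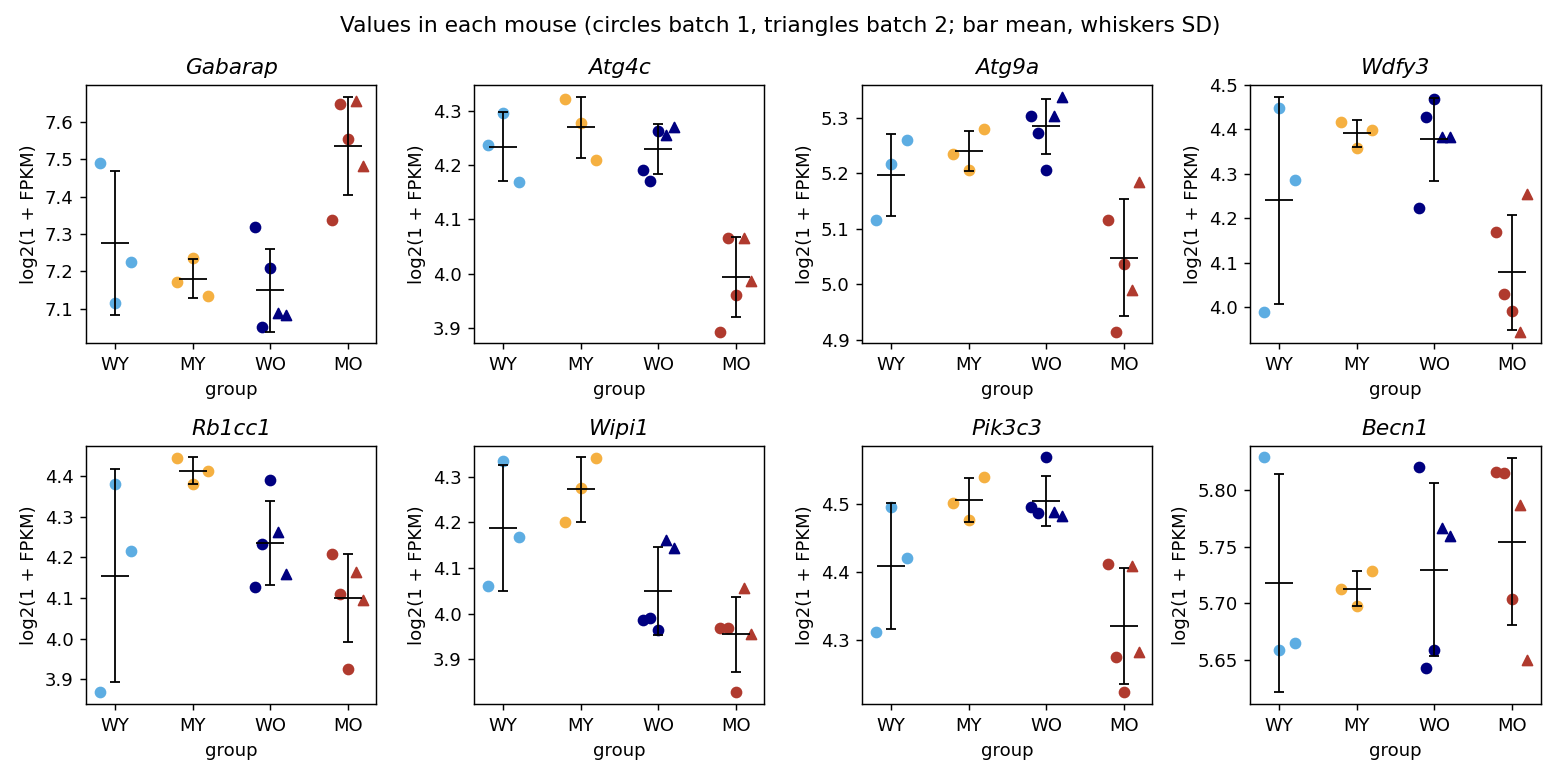
Value of 8 members in each mouse, log2(1 + FPKM) by group, with circles for batch 1, triangles for batch 2, bars for means and whiskers for SD. The 5 MO mice of *Atg4c* lie below all others, those of *Gabarap* lie above all MY and WO mice, and the groups of *Becn1* overlap.

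Among receptors, adaptors and tethers, *Wdfy3* and *Epg5* passed in MY vs. MO (2 of 5, all genes 25.6%). *Wdfy3* passed in WO vs. MO (1 of 5, all genes 27.9%). Each was lower in MO where it passed. *Wdfy3* encodes ALFY, a large scaffold for the autophagy of aggregates. The MO mice had *Wdfy3* at 4.17, 4.03, 3.99, 3.95 and 4.26, the WO mice at 4.22, 4.43, 4.47, 4.38 and 4.38, the MY mice at 4.42, 4.36 and 4.40 and the WY mice at 3.99, 4.45 and 4.29. MO mice were below all MY mice, and MO5 lay above WO1. It differed by a log2 fold change of -0.31 (SE 0.07, FDR 0.0152) in MY vs. MO and -0.30 (SE 0.07, FDR 0.0076) in WO vs. MO, with -0.31 in batch 1 and -0.28 in batch 2. *Epg5* encodes a tether of autophagosomes to lysosomes. Values of *Epg5* were 2.98, 3.04 and 2.98 in MY, 2.86, 2.77, 2.81, 2.71 and 2.91 in MO, 2.73, 2.99, 3.02, 3.00 and 3.06 in WO and 2.65, 3.00 and 2.88 in WY. MO mice were below all MY mice and overlapped WO at WO1. Its log2 fold change was -0.19 (SE 0.05, FDR 0.0273) and -0.15 (SE 0.07, FDR 0.124) in the same order. *Nbr1*, *Calcoco1* and *Tax1bp1*, which encode cargo receptors, did not pass.

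Fold changes of the members moved with transcript length. Over the 37 members, Pearson's r between log2 fold change and the log2 length of the longest GENCODE transcript was -0.66 in MY vs. MO and -0.62 in WO vs. MO, and over 17419 genes it was -0.21 and -0.14. These correlations are across genes, which share the same libraries and are not independent replicates. In WY vs. MY, where 0 members passed, r was 0.76 over the members and 0.23 over the 17419 genes. In WY vs. WO it was 0.52 and 0.07 in the same order. The trend differed between mice of the same group: at 1000 nt the fitted deviation from the gene means was 0.11 in MO4 and -0.05 in MO1, and it was 0.07 in WY1 and -0.08 in WY2. With the trend removed in each mouse, 5 members passed in MY vs. MO (all genes 23.4%) and 6 in WO vs. MO (all genes 28.4%). Of the 6 in WO vs. MO, 5 had passed in the main fit. The 6 were 2 higher and 4 lower in MO, beside 1 higher and 6 lower in the main fit. *Wdfy3*, the longest at 14274 nt, then had -0.14 in MY vs. MO (FDR 0.0723) and -0.17 in WO vs. MO (FDR 0.0114), and *Epg5* had -0.05 in MY vs. MO (FDR 0.393). *Rb1cc1* had -0.21 (FDR 0.0407) and *Atg101* 0.16 (FDR 0.051) in MY vs. MO, and *Atg4d* had -0.10 in WO vs. MO (FDR 0.216). *Atg4b* had -0.14 in MY vs. MO (FDR 0.0961), and *Pik3r4* had -0.10 in MY vs. MO (FDR 0.105) and -0.08 in WO vs. MO (FDR 0.103). *Gabarap*, at 1351 nt, had 0.28 in MY vs. MO (FDR 0.00976) and 0.34 in WO vs. MO (FDR 0.0014). Whether the length trend came from the libraries or from the tissue was not tested.

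**Figure D3:**
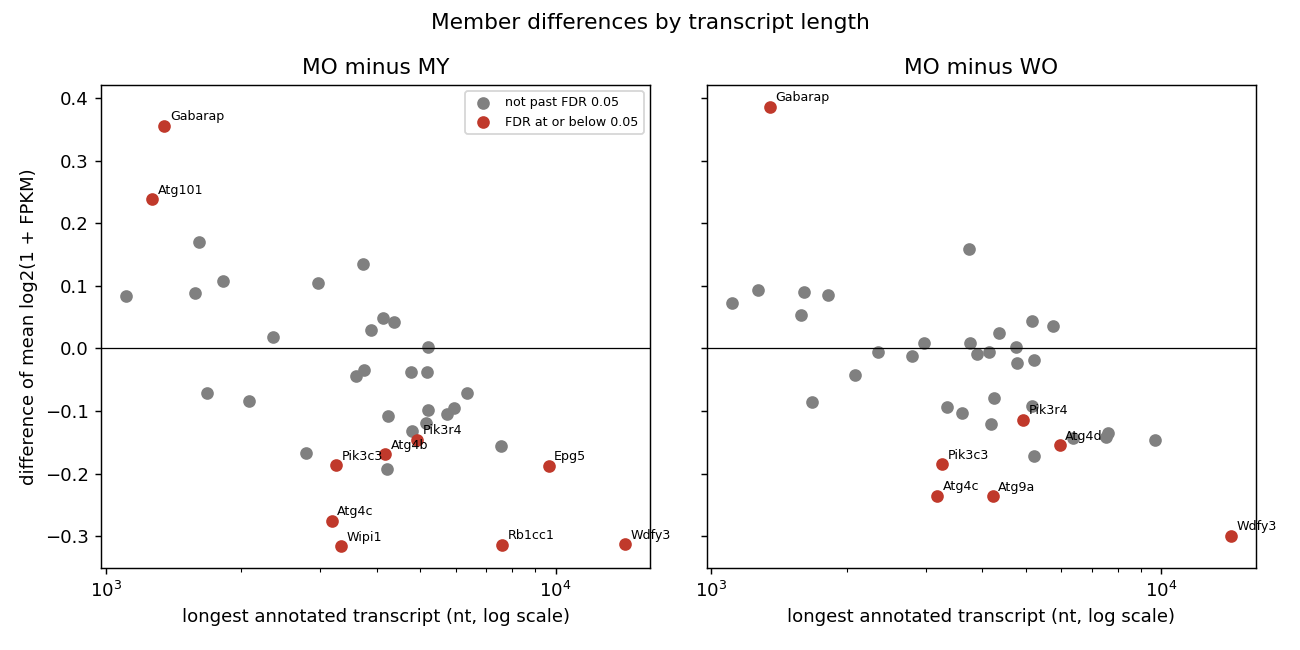
Difference of mean log2(1 + FPKM) of each member against the length of its longest annotated transcript (nt, log axis), MO minus MY on the left and MO minus WO on the right. Red marks members past FDR 0.05. Short members lie higher than long ones (r = -0.66 and -0.62 over 37 members).

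Cell type markers moved in the same comparisons. Of the microglia and macrophage list, 8 of 9 genes were higher in MO in both comparisons and 0 were lower. Of the astrocyte list, 3 of 7 were higher in MY vs. MO and 5 of 7 in WO vs. MO, with *Gfap* the most abundant gene and sums of 3182 to 4072 in MO and 1815 to 2072 in WO. Neuronal markers were lower in MO for 5 of 7 genes and motor neuron markers for 5 of 6 in both comparisons. The motor neuron sums were 43.4 to 54.6 in MO, 71.5 to 83.4 in WO, 63.8 to 69.5 in MY and 45.7 to 67.2 in WY, with *Slc5a7* the most abundant gene. Oligodendrocyte markers were lower for 4 of 7 genes in MY vs. MO, for 3 of 7, with 1 higher, in WO vs. MO, and lower in WO for 4 of 7 in WY vs. WO. Their sums stood apart by batch and mouse. They were 6905, 7379, 7487, 21856 and 21283 in the MO mice and 9914, 9201, 9189, 4905 and 23528 in the WO mice. *Mbp* was at 5.36 in WO4 and at 12.42 to 14.22 in the other WO mice, and at 12.16 to 12.24 in MO1 to MO3 and 14.11 and 14.14 in MO4 and MO5, although the values had been adjusted for batch. Endothelial markers were lower for 3 of 4 genes in WO vs. MO. Skeletal muscle markers were lower for 1 of 4 genes in WO vs. MO, and 0 of 4 blood and 0 of 4 meningeal fibroblast markers passed in either comparison. Of 6 spinal position genes, 1 was higher and 1 lower in WO vs. MO, and 1 was lower in MY vs. MO. Schwann cell markers were lower for 1 of 3 genes in MY vs. MO and 0 passed in WO vs. MO. They were near the floor, with the most abundant, *Pmp2*, at a mean of 0.27. In whole spinal cord, fewer cells of a type and less RNA per cell cannot be told apart, and the part of cell makeup in the members' values was not tested.

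Other genes of the pathway that passed in WO vs. MO were mostly higher in MO. Of 41 measured genes, 13 passed (31.7%, beside 27.9% of all genes), 11 higher (all genes 15%) and 2 lower (all genes 12.9%). In MY vs. MO, 8 of the 41 passed (19.5%, beside 25.6% of all genes), 5 higher (all genes 13.1%) and 3 lower (all genes 12.5%). Without MO5, 10 passed in WO vs. MO (all genes 25.9%) and 7 in MY vs. MO (all genes 23.7%), and in batch 1 alone 8 (all genes 14.4%) and 9 (all genes 24.9%) passed. Without MY1, MY2 or MY3, 5 passed in MY vs. MO (all genes 14.2%, 16.9% and 14.7%). *Vamp8*, a SNARE of autophagosome fusion, was the largest. In MO, *Vamp8* was at 4.96, 5.22, 5.06, 4.94 and 4.89, beside 4.08, 4.02, 4.26, 3.78 and 3.94 in WO, 3.81, 4.16 and 4.11 in MY and 4.37, 4.00 and 3.99 in WY. MO mice were above all others, and the log2 fold change was 1.00 (SE 0.09, FDR 3.71e-05) in WO vs. MO. *Lamp2*, a lysosomal membrane protein, followed at 0.46 (SE 0.08, FDR 0.00124), and *Bcl2*, which binds Beclin 1, at 0.44 (SE 0.06, FDR 0.000536). *Stbd1*, a glycogen receptor, had 0.38 (SE 0.07, FDR 0.00261) and *Atg4a* had 0.31 (SE 0.05, FDR 0.00186), opposite in sign to *Atg4c* and *Atg4d*. Neither passed in MY vs. MO, at 0.17 (SE 0.07, FDR 0.0954) and 0.09 (SE 0.06, FDR 0.345), where MO overlapped MY. *Sqstm1* encodes the receptor p62, which is itself degraded by autophagy. Its values were 8.18 to 8.42 in MO, 7.99 to 8.17 in WO, 7.96 to 8.01 in MY and 7.94 to 8.07 in WY. Each MO mouse was above every other mouse, with a log2 fold change of 0.25 (SE 0.05, FDR 0.00527) in WO vs. MO and 0.31 (SE 0.06, FDR 0.00564) in MY vs. MO. *Fyco1*, an adaptor for autophagosome transport, differed by -0.24 (SE 0.05, FDR 0.00695) in WO vs. MO and was at 3.63 to 3.86 in MO, 3.89 to 4.08 in WO, 3.80 to 3.97 in MY and 3.62 to 3.72 in WY. It was the only 1 of the 41 genes that passed in WY vs. WO in the main fit, at 0.28 (SE 0.05, FDR 0.0492). With all 4 groups in 1 fit, 3 of the 41 passed in WY vs. WO, and 0 passed under every other alternative run. For *Fyco1*, MO was below WO and near WY. *Mtor*, the kinase that restrains autophagy, was at -0.20 (SE 0.05, FDR 0.00985) in WO vs. MO. Its values were 3.80 to 4.01 in MO, 4.01 to 4.15 in WO, 4.06 to 4.13 in MY and 3.75 to 4.15 in WY. MO5 lay just above WO1, and WY1 was below every MO mouse. *Mtor* (8564 nt) and *Fyco1* (7949 nt) have long transcripts, and their values with the length trend removed are not given here. The receptor *Optn* and the kinase *Tbk1*, both linked to ALS, had 0.12 (SE 0.06, FDR 0.174) and -0.02 (SE 0.04, FDR 0.779) in WO vs. MO. *Tfeb*, a transcription factor of lysosomal genes, had 0.00 (SE 0.10, FDR 0.994), and none of these passed the threshold. Of the relatives of *Tfeb*, *Tfe3* was at 3.80 to 4.14 in MO and 3.73 to 3.92 in WO. For *Tfe3*, MO4 was inside the WO range and the other MO mice were above it. *Mitf* was at 2.31 to 2.46 in MO and 2.26 to 2.46 in WO.

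TFEB and its relatives bind the letters CACGTG, so the RefSeq promoters (GRCm38.p6, 300 bases around each listed start) were searched for them. The motif reads the same on both strands. Promoters were matched for 29 of 37 members (34 promoters), and 4 held the motif (11.8%), beside 7.15% of 32851 promoters. The longer form TCACGTGA, which contains it, was in 1 member, *Atg3* (2.94%), beside 0.974% of all. None of the 4 genes passed in any comparison. The windows are from the gene's own strand, with the motif in capitals, and are shown to give the sequence around each match: *Atg7* chr6:114670947-114670986 (+), *Atg5* chr10:44268308-44268347 (+), *Atg14* chr14:47568413-47568452 (-) and the second of 2 matches in *Atg3* chr16:45158741-45158780 (+).
Atg7: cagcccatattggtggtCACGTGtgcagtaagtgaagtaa
Atg5: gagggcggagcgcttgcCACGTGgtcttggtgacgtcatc
Atg14: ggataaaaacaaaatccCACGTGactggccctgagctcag
Atg3: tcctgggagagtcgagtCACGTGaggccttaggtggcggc
The *Atg7* and *Atg14* promoters lie inside the genes as GENCODE places them. A match is a description of the letters and no evidence of binding.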

How the data were processed

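Spinal cord RNA of 16 male-labelled mice in 4 groups was sequenced, 1 library per mouse. For the authors, Trimmomatic filtered the reads, TopHat placed them on mm10 and Cufflinks gave FPKM (versions not given in the sources used here). The authors removed mostly unexpressed genes, added 1, took log2 and adjusted for library batch with ComBat, whose covariates are not stated. If group was not among them, differences that run partly along batch may have been altered, as batch 2 held old mice alone. The deposited log2 values were used as they are, and 0 sample columns were left out. Fragments per gene are unknown from the deposited values, so precision rests on the spread between mice.

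Each pair of groups was fitted alone with limma 3.58.1 in R 4.3.3 (lmFit and eBayes, two-sided) on 18167 genes with Benjamini-Hochberg adjustment, and (MO - MY) - (WO - WY) was fitted on all 16 mice. The fits were tested on simulated data. Positions and transcript lengths came from GENCODE M21 (GRCm38), which matched 17419 genes. Python 3.11.15 was used with pandas 2.3.3 and matplotlib 3.10.9.

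Members and lists were chosen with earlier results of these data known. Values in every mouse were given for the 12 largest log2 fold changes among members passing in either comparison with MO, and for *Becn1*, *Ulk1* and the ATG8 genes. Of 42 other pathway genes, 41 were in the table, and up to 6 largest increases and decreases in WO vs. MO were eligible to be named, with *Sqstm1*, *Optn*, *Tbk1* and *Tfeb*. *Tfe3* and *Mitf* were added after the data were seen, as relatives of *Tfeb*. Fits without MO5, within batch 1 and with the length trend removed are among the alternatives. Giving them beside the main counts and for *Gabarap* was chosen after the data were seen, as were the correlations with transcript length and the search for promoter motifs. Alternatives were a fold change of 1.5, batch 1 only, batch as a term, all 4 groups in 1 fit, a pseudocount of 0.25, a mean of at least 1, quantile normalization, removal of the transcript length trend by lowess (span 0.3), a block for replicate number, and leaving out 1 mouse at a time.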

Additional observations from a re-analysis of the deposited data

Results flagged for a closer look

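In 4 of 74 tests of a single mouse within the MO or WO group (37 members, 5 mice a group), 1 mouse lay far from the others, and chance alone marks about 1 group in 20. *Atg5* was at 3.86 in WO4, against 4.02 to 4.07 in the other WO mice. *Atg12* was at 5.00 in WO1, against 4.84 to 4.88. *Pik3c3* was at 4.57 in WO3, against 4.48 to 4.50. *Epg5* was at 2.73 in WO1, against 2.99 to 3.06.

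The age effect in mutant mice minus that in wild-type mice passed FDR 0.05 in limma for 6 members (all genes 17.7%). It was 0.48 for *Gabarap* (SE 0.13, FDR 0.0167), -0.45 for *Wdfy3* (SE 0.13, FDR 0.0272; -0.24 with FDR 0.0239 when the length trend is removed) and -0.28 for *Pik3c3* (SE 0.07, FDR 0.0148). It was -0.28 for *Atg9a* (SE 0.08, FDR 0.0247), -0.27 for *Atg4c* (SE 0.07, FDR 0.0127) and -0.24 for *Atg4b* (SE 0.07, FDR 0.0214). In batch 1 alone only *Atg4b* and *Pik3c3* passed. There *Atg4c* had -0.27 (FDR 0.0547), *Atg9a* -0.28 (FDR 0.0551), *Wdfy3* -0.46 (FDR 0.0747) and *Gabarap* 0.42 (FDR 0.104). Without WY1, *Wdfy3* at -0.32 (FDR 0.0707), *Atg4b* at -0.21 (FDR 0.0646) and *Atg9a* at -0.24 (FDR 0.0738) did not pass. The same genes did not pass without MY3 (FDR 0.0607, 0.0653 and 0.0689 in the same order). *Wdfy3* (FDR 0.0664) and *Atg9a* (FDR 0.0542) were also lost without MY1, and *Atg4b* (FDR 0.0506) without WY3.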

How the results depend on the processing

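With a fold change of at least 1.5 added, 0 members passed in MY vs. MO (all genes 4.9%). The count was also 0 in WO vs. MO (all genes 4.6%) and in the difference of the age effect (all genes 5.61%). In batch 1 alone, 0 passed in WO vs. MO (all genes 14.4%) and 2 in the difference of the age effect (all genes 12.4%), with fewer mice. Quantile normalization gave 11 in WO vs. MO (all genes 31.7%) and 12 in the difference of the age effect (all genes 19.8%), and removal of the length trend gave 5 in MY vs. MO (all genes 23.4%). The cause was not tested. Leaving out each mouse in turn gave 3 (without MY3, all genes 14.7%) to 13 (without MO1, all genes 28.2%) members in MY vs. MO and 5 to 9 (without MO1, all genes 28.3%) in WO vs. MO. In the difference of the age effect it gave 3 (without MY3, all genes 12.5%, or without WY1, all genes 12.9%) to 11 (without WY2, all genes 21.7%). In WY vs. WO and WY vs. MY, 0 members passed under every alternative run.

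With the replicate block, 6 members passed in MY vs. MO (all genes 20.6%), 5 in WO vs. MO (all genes 22.7%) and 6 in the difference of the age effect (all genes 15.8%). Of the other pathway genes, 7 passed with it in MY vs. MO and 9 in WO vs. MO. The labels do not pair mice by replicate number. Same-numbered deviations correlated at 0.18, 0.09 and 0.15 in MY vs. MO, where the 2 mice of each number matched each other best, and at -0.21 to 0.09 in WO vs. MO, where no 2 did. In WY vs. WO they correlated at 0.38, -0.13 and 0.19, and WY1 with WO1 and WY3 with WO3 matched each other best.

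For the 23 fold changes of passing members, 424 alternative values gave 327 past the threshold and 97 not, with 0 changes of sign. The fold change of 1.5, with which 0 members passed, is not counted among these alternatives. *Atg4c*, *Rb1cc1* and *Wipi1* passed in MY vs. MO in 16 of the 16 counted. *Gabarap* passed in 15 of 16, and without MY3 its FDR was 0.0503. *Pik3r4* passed in 2 of 16 in MY vs. MO and in 3 of 18 in WO vs. MO, *Atg4d* in 7 of 18 in WO vs. MO (batch 1 alone FDR 0.148, replicate block FDR 0.122), and *Atg4b* and *Pik3c3* each in 6 of 16, *Epg5* in 7 of 16 and *Atg101* in 10 of 16 in MY vs. MO. Depth per gene is unknown from the deposited values, so its limit on these calls is not given.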
